A study of Mus musculus with 10 samples.

Results

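The genes described here encode 10 surface proteins by which plasma cells are recognised or sorted: Sdc1, Slamf7, Slamf6, Cd28, Cd38, Cd93, Cd81, Ly6c2, Ly6k and Cacna1h. They were found by matching the Ensembl identifiers of the deposited tables to these symbols in GENCODE M21, and each symbol matched 1 of the 47719 identifiers. RNA came from splenic mouse plasma cells that had been sorted by isotype, and 5 libraries were made for IgM and 5 for IgG1. All of these cells descended from transferred donor B cells with S1PR2-CreERT2, a tamoxifen-dependent Cre driven from the S1pr2 gene of germinal centre B cells, the Ai14 tdTomato reporter and the B1-8germ heavy chain. Their wild-type hosts were immunised with NP-CGG and alum (day 0) and received tamoxifen at days 5 and 6; tdTomato-positive donor plasma cells were collected on day 10. Both groups share these alleles and treatments, and differ in the sorted isotype. Whether each library stands for its own animal is not stated in the labels, and the p-values therefore speak of the spread among these libraries, which may be technical. Animal age is not given in the sources used here.

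Plasma cells secrete antibody and change their surface as they leave the B cell stage. Sdc1 (CD138), a heparan sulfate proteoglycan, is the standard marker of the stage and binds survival factors such as APRIL. CD28 and the SLAM receptors pass contact signals, CD93 and CD28 are known for their part in long-lived plasma cells, CD38 is an NAD-consuming ectoenzyme, and CD81 is a tetraspanin, a membrane protein that organises other surface proteins.

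Promoter sequences are shown for 4 of the genes. Slamf7 and Cd38 were lower in IgG1 cells. Slamf6 lies near Slamf7 in the SLAM gene cluster and did not pass the test. Sdc1, the defining marker, was also called lower (limma adjusted p = 0.0468), by a small difference described below. The RefSeq promoter table (GRCm38.p6, 250 bases before to 50 after the gene start) held 6 of the 10 genes. It lacked Ly6k and also Cd28, Cd93 and Cacna1h, which were called lower in IgG1 cells. Capitals mark GAAAG or its complement CTTTC, letters that occur in the core of sites described for Blimp-1, the regulator encoded by Prdm1. The windows are chr1:171648950-171649249 on the minus strand for Slamf7, chr5:43868559-43868858 on the plus strand for Cd38, chr1:171917212-171917511 on the plus strand for Slamf6 and chr12:8771146-8771445 on the plus strand for Sdc1.
Slamf7: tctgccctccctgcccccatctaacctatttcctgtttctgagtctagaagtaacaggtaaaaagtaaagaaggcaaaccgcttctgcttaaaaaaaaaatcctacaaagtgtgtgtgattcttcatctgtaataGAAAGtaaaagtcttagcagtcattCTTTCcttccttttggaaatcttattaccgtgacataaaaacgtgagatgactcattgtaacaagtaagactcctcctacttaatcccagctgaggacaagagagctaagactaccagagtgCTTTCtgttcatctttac
Cd38: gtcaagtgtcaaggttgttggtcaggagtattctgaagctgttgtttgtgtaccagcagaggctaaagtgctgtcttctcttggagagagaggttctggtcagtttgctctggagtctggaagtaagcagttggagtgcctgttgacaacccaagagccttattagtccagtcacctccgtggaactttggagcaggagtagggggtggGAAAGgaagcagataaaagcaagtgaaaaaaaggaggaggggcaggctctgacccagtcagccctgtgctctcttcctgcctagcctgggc
Slamf6: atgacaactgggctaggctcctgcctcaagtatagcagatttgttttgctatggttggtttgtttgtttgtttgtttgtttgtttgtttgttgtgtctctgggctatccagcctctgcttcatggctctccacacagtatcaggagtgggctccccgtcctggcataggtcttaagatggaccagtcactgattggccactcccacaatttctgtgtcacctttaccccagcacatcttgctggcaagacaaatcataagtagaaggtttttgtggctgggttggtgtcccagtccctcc
Sdc1: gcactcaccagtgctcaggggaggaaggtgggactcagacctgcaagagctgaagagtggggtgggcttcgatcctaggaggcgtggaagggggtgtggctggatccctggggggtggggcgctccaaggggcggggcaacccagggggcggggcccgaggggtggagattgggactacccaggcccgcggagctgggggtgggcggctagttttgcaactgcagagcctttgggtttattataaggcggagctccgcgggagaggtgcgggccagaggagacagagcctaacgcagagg
On either strand the letters GAAAG occurred 3 times in the Slamf7 window, 1 time in that of Cd38 and 0 times in those of Slamf6, Sdc1, Cd81 and Ly6c2, against 57.3% of all 32851 promoter windows with at least 1 match. The GC box letters GGGCGG occurred 3 times in the Sdc1 window and 3 times in that of Cd81, and 35.7% of all windows held them. The E-box CANNTG was found 2 times in the Slamf7 window, 3 times in that of Cd38 and 1 time each in those of Slamf6 and Sdc1, with a share of 72.3% over all windows. The windows follow the RefSeq starts, which for Slamf7, Cd38 and Sdc1 lie inside the GENCODE spans of the genes given below. The Slamf7 and Cd38 windows lie wholly within those spans. These matches describe the letters and say nothing of binding.

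From 15121 to 15800 genes were listed above 0 in IgM libraries and from 13286 to 13961 in IgG1 libraries, at depths estimated from the spacing of low values as 27.0 to 31.3 M and 26.5 to 38.6 M fragments (M, mega). The part of this gap in gene number in the differences below was not tested. The plasma cell label fitted its markers, with Xbp1 between 2765 and 3367 FPKM over the 10 libraries. The 6 plasma cell markers summed to 46659 to 51965 FPKM in IgM and 29708 to 33375 FPKM in IgG1 libraries. Most of this sum was Jchain, at 36165 to 40282 against 19438 to 23043 FPKM. Prdm1 was also lower in IgG1 cells, with means of 53.5 and 29.2 FPKM (limma adjusted p = 6.37e-07). Tnfrsf17 (given below), Mzb1 (means 7688 and 6841 FPKM) and Irf4 (65.5 and 55.7 FPKM) were lower too. Xbp1 alone went the other way, with means of 2928 FPKM for IgM and 3194 FPKM for IgG1 (limma adjusted p = 0.0104). Its sign turned when trends in transcript length and GC content were removed. The call of Irf4 (limma adjusted p = 0.0496) ended under 11 alternative settings. The library ranges of Irf4 and of Mzb1 overlapped between the groups. Under quantile normalization the sign of Mzb1 turned and the call of Jchain ended. The calls of Mzb1 and Xbp1 ended with eBayes without trend or robust. Prdm1 and Tnfrsf17 kept their calls under every alternative. The part of these 6 markers in the differences of the 10 genes was not tested. Of 5 neutrophil markers 4 and of 5 NK cell markers 2 were at 0 in every library, and the 4 erythroid markers summed to at most 4.62 FPKM. The 5 NK cell markers summed to 0.850 to 1.99 FPKM in IgM and 1.60 to 3.12 FPKM in IgG1 libraries. FPKM, the number of fragments scaled by transcript length and by all mapped fragments, is by definition a share of the library. Whether the deposited values were also rescaled between libraries is not given in the sources used here. In bulk RNA fewer cells of a kind cannot be told apart from less RNA per cell.

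Slamf7, Cd81 and Sdc1 were the most abundant of the 10 genes and Cd38 the least. Mean FPKM in IgM cells ran in the order Slamf7 (388), Cd81 (309), Sdc1 (284), Ly6c2 (132), Slamf6 (67.1), Cd28 (45.9), Ly6k (31.1), Cacna1h (18.8), Cd93 (15.6) and Cd38 (6.02). The library ranges of Cd81 and Sdc1 overlapped, as did those of Cd28 and Ly6k, and no other neighbours in that order overlapped. In IgG1 cells the order began with Cd81 (299.8), Sdc1 (258) and Slamf7 (258), whose neighbouring ranges overlapped, and then followed the same sequence as in IgM cells. There the ranges of Ly6k and Cacna1h also overlapped.

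**Figure D1:**
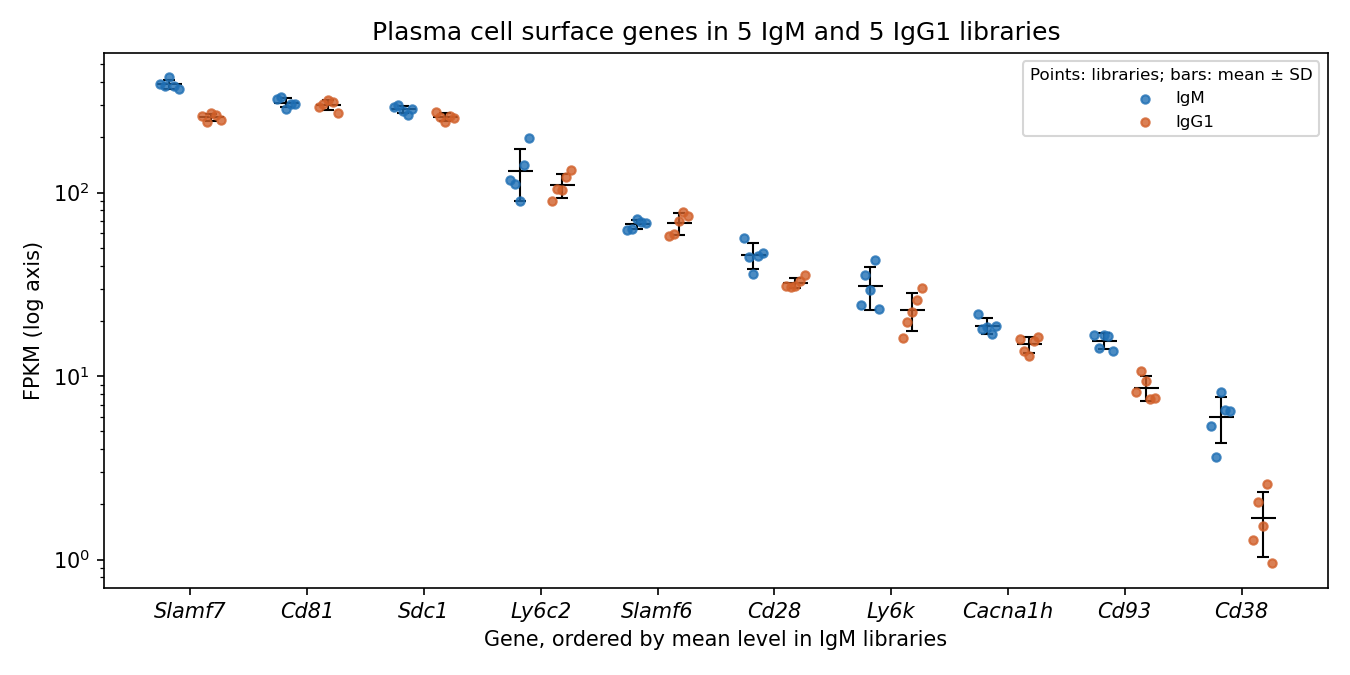
FPKM (vertical log axis) of each gene in 5 IgM and 5 IgG1 libraries, with points for libraries and bars for mean ± SD. Slamf7, Cd28, Cd93, Cd38 and Cacna1h had no IgG1 library as high as any IgM library.

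Cd38, Cd93, Slamf7, Cd28, Cacna1h and Sdc1 were lower in IgG1 than in IgM cells, and Ly6k, Ly6c2, Cd81 and Slamf6 did not pass the test (limma on log2 of FPKM plus 1, Benjamini-Hochberg adjusted p under 0.05 over 9900 genes). All 10 genes passed the filter of a mean of at least 1 FPKM. Thus 6 of 10 were called lower and 0 higher, where 38.3% of all genes tested were called, 20.2% lower and 18.1% higher. In 5 of 10 genes all IgG1 libraries lay below all IgM libraries, against 13.3% of all genes tested. The median log2 difference, IgG1 minus IgM, was -0.37 over the 10 genes and -0.05 over all genes tested. The genes were chosen with earlier results of these data known, so this count is a description. The number called lower came to 4 without a filter and with median-ratio scaling, and leaving out single libraries gave between 4 and 6. It came to 7 with trends in transcript length and GC content removed, an alternative added after the data were seen.

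**Figure D2:**
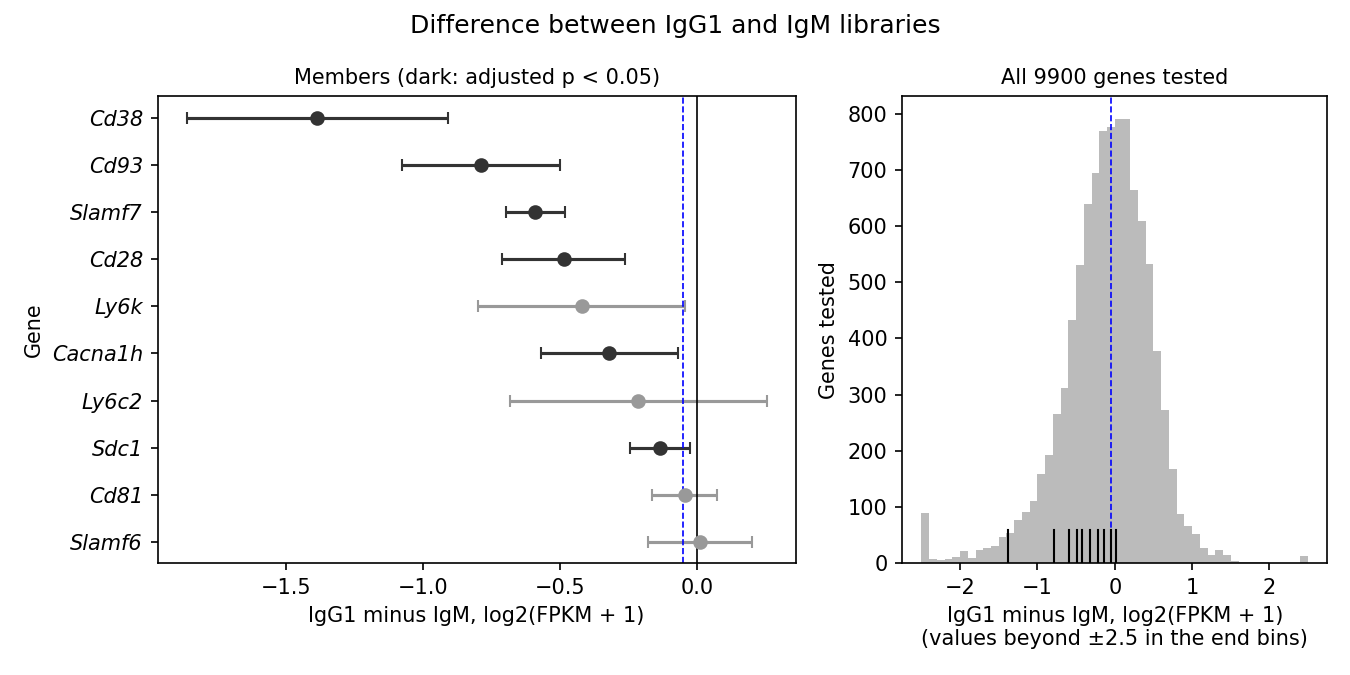
Left, the log2 difference between IgG1 and IgM libraries for each gene with its 95% confidence interval, where dark points passed the test. Right, a histogram of the same difference over all 9900 genes tested with the 10 genes as short black lines; the dashed line is the median of all genes, -0.05.

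Sdc1 differed little between the isotypes. Sdc1 (chromosome 12, 8771323 to 8793715, plus strand, GRCm38) was at 292, 299, 278, 266 and 284 FPKM in IgM libraries and at 276, 258, 242, 263 and 254 FPKM in IgG1 libraries. Of the IgG1 libraries 4 lay below every IgM library, and replicate 1 overlapped the IgM range. The means were 284 ± 12.8 and 258 ± 12.3 FPKM (SD, n = 5 each), a log2 difference of -0.13 (SE 0.05, limma adjusted p = 0.0468). The call ended under 11 of 21 alternatives, among them without a filter (adjusted p = 0.110), with median-ratio scaling (0.152), with eBayes without trend or robust (0.163), and when IgM replicate 1, 2, 3 or 5 was left out, or any of IgG1 replicates 2, 3 and 5 (limma adjusted p = 0.0535 to 0.118). With trends in transcript length and GC content removed, the difference was -0.31 (limma adjusted p = 7.72e-05).

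Genes for the other syndecans and for the heparan sulfate chains that syndecans carry mostly did not pass. Of 24 listed genes 19 were tested, with 2 higher and 1 lower in IgG1 cells and a median log2 difference of -0.00 against -0.05 over all genes tested. For this list and each list below, the shares of all genes tested were 18.1% higher and 20.2% lower. B3gat3, which finishes the sugar linker of the chain, stood at 16.3 ± 1.91 FPKM for IgM and 22.7 ± 3.50 FPKM for IgG1 (SD, n = 5 each, limma adjusted p = 0.00873), and its call ended when length and GC trends were removed. Ext2, a subunit of the chain polymerase, was at 21.9 against 27.2 FPKM (limma adjusted p = 0.0458). Sdcbp (syntenin), which binds syndecan tails, was at 97.5 against 81.4 FPKM (limma adjusted p = 0.0291). The call of Ext2 ended under 13 of the 21 alternatives and that of Sdcbp under 10.

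Of the SLAM receptors, Slamf7 was lower in IgG1 cells and Slamf6 did not pass the test. Slamf7 (CRACC; chromosome 1, 171632403 to 171653035, minus strand) was at 391, 381, 425, 380.1 and 365 FPKM in IgM libraries and at 261, 244, 270.1, 266 and 248 FPKM in IgG1 libraries. The groups did not overlap, and the gap between them was wider than the range within either group. The means were 388 ± 22.2 and 258 ± 11.4 FPKM (SD, n = 5 each), 1.51 times as high in IgM cells (log2 difference -0.59, SE 0.05, limma adjusted p = 8.56e-08). An antisense gene, Gm37787, overlaps Slamf7 exons and shares 6.03% of its 75-base transcript windows. Gm37787 was at 5.62 to 11.2 FPKM in IgM and 3.68 to 6.14 FPKM in IgG1 libraries, and reads of the pair cannot be told apart without strand.

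Slamf6 (Ly108; chromosome 1, 171917515 to 171953170, plus strand) was at 62.5, 63.5, 71.9, 69.3 and 68.5 FPKM in IgM libraries and at 57.7, 59.3, 70.4, 78.1 and 74.996 FPKM in IgG1 libraries. The IgG1 libraries enclosed the whole IgM range. The means were 67.1 ± 3.98 and 68.1 ± 9.21 FPKM (SD, n = 5 each), with a log2 difference of 0.01 (95% confidence interval -0.18 to 0.20, limma adjusted p = 0.938). Its sign turned under 8 of 21 alternatives. With length and GC trends removed the difference came to 0.23 (limma adjusted p = 0.0507), which did not pass.

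Of 14 other SLAM family and adaptor genes 9 were tested, with 1 higher and 2 lower in IgG1 cells and a median of -0.19. Cd48, a GPI-anchored family member, rose from 188 ± 10.5 in IgM to 238 ± 11.9 FPKM in IgG1 cells (SD, n = 5 each, limma adjusted p = 9.51e-05). Ptpn6, the phosphatase SHP-1 that SLAM tails can recruit, fell from 48.1 ± 8.05 to 16.1 ± 1.70 FPKM (limma adjusted p = 2.88e-08). Fyn, a kinase of the SLAM and antigen receptor pathways, fell from 26.1 ± 5.23 to 8.61 ± 2.24 FPKM (limma adjusted p = 3.89e-06). Ly9, another member of the cluster named here after its values were seen, was at 32.3 to 41.1 FPKM in IgM and 32.7 to 36.8 FPKM in IgG1 libraries (limma adjusted p = 0.509).

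Cd28 was lower in every IgG1 library than in any IgM library. Cd28 (chromosome 1, 60716800 to 60773359, plus strand), the costimulatory receptor for CD80 and CD86, was at 56.8, 44.5, 36.0, 45.1 and 46.8 FPKM in IgM libraries and at 31.2, 30.5, 30.9, 32.8 and 35.5 FPKM in IgG1 libraries. IgM replicate 3 and IgG1 replicate 5 came within 1 FPKM of each other. The means were 45.9 ± 7.43 and 32.2 ± 2.04 FPKM (SD, n = 5 each), 1.43 times as high in IgM cells (log2 difference -0.49, SE 0.11, limma adjusted p = 0.00151). With length and GC trends removed the difference came to -0.29 (limma adjusted p = 0.0426). T cells also express Cd28, and 8 T cell markers together summed to 1.69 to 5.97 FPKM in IgM and 0.958 to 3.80 FPKM in IgG1 libraries. Trac was at 1.38 to 3.91 FPKM in IgM and 0 to 0.696 FPKM in IgG1 libraries, and Cd4 went the other way, at 0 to 0.726 FPKM against 0.773 to 3.10 FPKM. Trbc2 reached 1.49 FPKM, Cd3g 1.22 FPKM, Cd3d 0.947 FPKM, Cd8a 0.114 FPKM and Cd3e 0.0887 FPKM, and Cd5 was at 0 in every library. The part of these transcripts in the Cd28 difference was not tested.

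Of 19 genes of the CD28 family, its ligands and its signalling, 11 were tested, with 0 higher and 4 lower in IgG1 cells and a median of -0.36. Over all genes tested 18.1% were higher and 20.2% lower. The inhibitory receptor Ctla4, which shares the CD28 ligands, fell from 12.2 ± 2.87 to 4.25 ± 1.76 FPKM (SD, n = 5 each, limma adjusted p = 3.72e-04). The inhibitory receptor Btla fell from 10.8 ± 2.62 to 0.981 ± 0.627 FPKM (limma adjusted p = 2.31e-07). Pik3r1, the p85 subunit of PI3 kinase that binds the CD28 tail, fell from 11.8 ± 3.99 to 5.65 ± 1.63 FPKM (limma adjusted p = 0.00227), and the adaptor Pik3ap1 from 7.46 ± 1.27 to 4.42 ± 0.845 FPKM (limma adjusted p = 0.00689).

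Cd38 had the widest difference of the 10 genes and the lowest level. Cd38 (chromosome 5, 43868553 to 43912375, plus strand) was at 5.32, 3.62, 8.17, 6.51 and 6.47 FPKM in IgM libraries and at 1.28, 2.07, 1.53, 2.57 and 0.956 FPKM in IgG1 libraries. The groups did not overlap, although Cd38 had the widest relative spread of the 10 genes in IgG1 libraries, with an SD of 38.3% of the mean. The means were 6.02 ± 1.68 and 1.68 ± 0.644 FPKM (SD, n = 5 each), 3.58 times as high in IgM cells (log2 difference of FPKM plus 1 -1.39, SE 0.23, limma adjusted p = 9.72e-05). With a pseudocount of 5 the difference was -0.71 and with 0.1 it was -1.81, since the added constant weighs on low values. Mature B cells also express Cd38, and the 6 mature B cell markers summed to 116 to 139 FPKM in IgM and 77.7 to 95.7 FPKM in IgG1 libraries, with Ms4a1 the highest at a mean of 62.9 and 42.9 FPKM and Pax5 at most 0.335 FPKM. The part of those transcripts in the Cd38 difference was not tested.

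Among 12 measured relatives and partners of CD38, 5 were tested, and 1 was higher and 1 lower in IgG1 cells. The ectonucleotidase Entpd1 (CD39) stood at 128 ± 13.2 FPKM for IgM and 149.8 ± 13.0 FPKM for IgG1 (SD, n = 5 each, limma adjusted p = 0.0256), and Enpp1, which cleaves nucleotides outside the cell, was at 109 ± 11.1 and 94.5 ± 4.02 FPKM (limma adjusted p = 0.0407). These calls ended under 7 and 10 of the 21 alternatives. Bst1 (CD157), the closest relative of CD38, was listed at 0 in every library; it is named here after its values were seen.

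Cd93 was also lower in all IgG1 libraries. Cd93 (chromosome 2, 148436640 to 148443563, minus strand), a C-type lectin domain receptor, was at 16.8, 14.3, 16.8, 16.5 and 13.7 FPKM in IgM libraries and at 8.15, 10.6, 9.42, 7.46 and 7.63 FPKM in IgG1 libraries. The lowest IgM library was above the highest IgG1 library by more than 3 FPKM. The means were 15.6 ± 1.49 and 8.65 ± 1.33 FPKM (SD, n = 5 each), 1.80 times as high in IgM cells (log2 difference -0.79, SE 0.14, limma adjusted p = 1.89e-04). Thbd (thrombomodulin), a structural relative of CD93, fell from 20.5 ± 2.62 to 11.5 ± 1.36 FPKM (limma adjusted p = 9.57e-05), and was the 1 of 5 tested relatives and partners that passed.

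Cd93 is also expressed by endothelial and myeloid cells. Of 4 endothelial markers Pecam1 was at 4.29 to 7.75 FPKM over the 10 libraries, while Cdh5 reached 0.723 FPKM, Vwf 0.316 FPKM and Kdr 0.00552 FPKM. The 4 summed to 4.69 to 6.96 FPKM in IgM and 4.63 to 7.77 FPKM in IgG1 libraries. Of 6 monocyte and macrophage markers Lyz2 reached 2.36 FPKM, C1qa 1.41 FPKM, Csf1r 1.07 FPKM, Adgre1 0.636 FPKM and Ccr2 0.251 FPKM. The sum of the 6 was 30.2 to 37.4 FPKM in IgM and 12.8 to 18.3 FPKM in IgG1 libraries, most of it the lysosomal gene Cd68 (means 31.2 and 12.9 FPKM). The part of both marker lists in the Cd93 difference was not tested.

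Cd81 stayed within the spread of its libraries. Cd81 (chromosome 7, 143052739 to 143067934, plus strand) was at 321, 331, 285, 304 and 305 FPKM in IgM libraries and at 292, 302, 321, 312 and 272 FPKM in IgG1 libraries. The ranges overlapped over most of their width. The means were 309 ± 17.7 and 299.8 ± 18.8 FPKM (SD, n = 5 each), with a log2 difference of -0.05 (95% confidence interval -0.16 to 0.07, limma adjusted p = 0.549). It did not pass under any of 21 alternatives, with the smallest adjusted p, 0.0544, when length and GC trends were removed.

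Other tetraspanins and CD81 partners moved in both directions. Of 19 listed genes 14 were tested, with 4 higher and 5 lower in IgG1 cells and a median of -0.04. The tetraspanin Cd53 fell from 329 ± 23.6 to 263 ± 13.4 FPKM (SD, n = 5 each, limma adjusted p = 2.27e-04), and Tspan31 fell from 40.6 ± 1.85 to 23.6 ± 5.39 FPKM (limma adjusted p = 9.69e-05). Ifitm3, an antiviral membrane protein found with CD81, rose from 12.7 ± 3.38 to 25.0 ± 4.31 FPKM (limma adjusted p = 2.12e-04). Further called members, named here after their values were seen, were the complement receptor Cr2 and Tspan13 on the lower side and Igsf8, Cd37 and Cd9 on the higher side. The call of Tspan13 ended under 11 of 21 alternatives, that of Cd9 under 6 and that of Cd37 under 2.

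Ly6c2 and Ly6k, small GPI-anchored proteins of the Ly6 family, did not pass the test. Ly6c2 (Ly6C; chromosome 15, 75108158 to 75111970, minus strand) was at 117, 112, 90.2, 141 and 198 FPKM in IgM libraries and at 90.4, 104, 103, 122 and 132 FPKM in IgG1 libraries. The IgG1 values lay within the IgM range. The means were 132 ± 41.5 and 110.2 ± 16.5 FPKM (SD, n = 5 each), with a log2 difference of -0.21 (95% confidence interval -0.68 to 0.25, limma adjusted p = 0.450). Without IgM replicate 5 the difference was -0.05 (limma adjusted p = 0.778). Of its 75-base transcript windows 20.7% are also found in Ly6c1, which stood at 0.123 to 2.39 FPKM, so counts of the pair are uncertain.

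Ly6k (chromosome 15, 74796874 to 74799986, minus strand) was at 24.4, 35.6, 29.5, 42.8 and 23.3 FPKM in IgM libraries and at 16.2, 19.8, 22.4, 26.0 and 30.0 FPKM in IgG1 libraries. Of the IgG1 libraries 3 lay below every IgM library and the other 2 within the IgM range. The means were 31.1 ± 8.12 and 22.9 ± 5.36 FPKM (SD, n = 5 each), with a log2 difference of -0.42 (95% confidence interval -0.80 to -0.04, limma adjusted p = 0.0745). It passed under 4 of 21 alternatives, among them without IgM replicate 5 (-0.51, limma adjusted p = 0.0364), without IgG1 replicate 5 (-0.52, limma adjusted p = 0.0288) and with length and GC trends removed (-0.57, limma adjusted p = 0.0190). An antisense gene, Gm17189, shares 24.5% of the Ly6k windows and was at most 0.0185 FPKM.

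Of 25 other Ly6 and uPAR domain genes in the files 12 were at 0 in every library and 6 were tested, with 1 higher and 1 lower in IgG1 cells and a median of -0.07. Ly6d rose from 264 ± 26.2 to 401 ± 35.3 FPKM (SD, n = 5 each, limma adjusted p = 2.36e-06). Ly6a (Sca-1), a marker of plasma cells and of stem cells, fell from 1772 ± 150.2 to 1281 ± 103 FPKM (limma adjusted p = 2.59e-05), a call that ended under quantile normalization.

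Cacna1h was slightly lower in IgG1 cells. Cacna1h (chromosome 17, 25374285 to 25433783, minus strand), the pore subunit of a T-type calcium channel, was at 21.8, 18.1, 18.4, 17.0 and 18.8 FPKM in IgM libraries and at 15.97, 13.7, 12.9, 15.5 and 16.4 FPKM in IgG1 libraries. The groups did not overlap, and the lowest IgM and highest IgG1 libraries lay within 1 FPKM. The means were 18.8 ± 1.79 and 14.9 ± 1.53 FPKM (SD, n = 5 each), 1.26 times as high in IgM cells (log2 difference -0.32, SE 0.12, limma adjusted p = 0.0409). The call ended under 11 of 21 alternatives, among them without a filter (adjusted p = 0.0774), with median-ratio scaling (0.0636), under quantile normalization (0.139), and when IgM replicate 1, 2, 3 or 5 was left out, or any of IgG1 replicates 2, 3 and 4 (limma adjusted p = 0.0523 to 0.109). Tpsg1, whose exons overlap Cacna1h on the other strand, was listed at 0 in every library.

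Of 17 other voltage-gated calcium channel genes 3 were tested, and 2 were lower and 0 higher in IgG1 cells, beside 20.2% and 18.1% of all genes tested. Cacna1e, the R-type pore subunit, fell from 8.68 ± 0.968 to 3.01 ± 0.467 FPKM (SD, n = 5 each, limma adjusted p = 7.64e-06). Cacna1s, the L-type pore subunit known from skeletal muscle, stood at 51.3 ± 5.80 FPKM for IgM and 41.3 ± 8.61 FPKM for IgG1 (limma adjusted p = 0.0430), and that call ended under 10 of 21 alternatives.

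Other surface proteins used to sort plasma cells and their precursors gave 7 higher and 11 lower among 22 tested, where 18.1% of all genes tested were higher and 20.2% lower, with a median of -0.29. The survival receptor gene Tnfrsf17 (BCMA) was 2.85 times as high in IgM cells (limma adjusted p = 1.42e-10). Ptprc (CD45) fell from 186 ± 12.2 to 114 ± 8.63 FPKM (SD, n = 5 each, limma adjusted p = 1.96e-07), and Il13ra1, a chain of the IL-13 receptor, from 17.2 ± 4.04 to 3.78 ± 1.23 FPKM (limma adjusted p = 7.48e-07). Ly6d, given above, was on the higher side. Over all 9 lists together, 15 of 91 tested genes were higher and 26 lower, beside the same 18.1% and 20.2% of all genes tested.

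**Figure D3:**
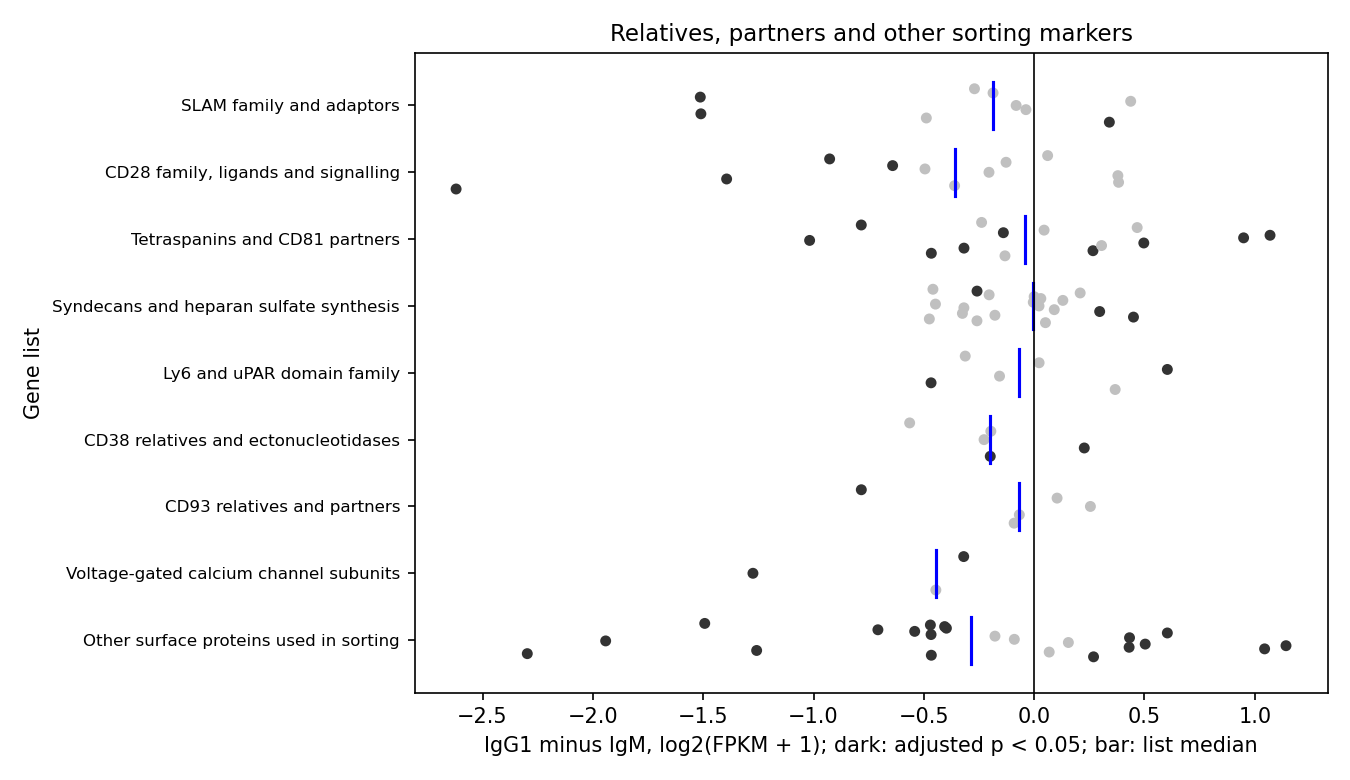
Log2 difference between IgG1 and IgM libraries (horizontal axis) for every tested gene of the 9 lists of relatives, partners and other sorting markers, with dark points for genes that passed the test and a bar for each list's median. Each list's points spread to both sides of 0 except the calcium channel subunits, whose 3 tested genes were all below 0.

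Because FPKM is by definition a share of the library, each gene was also set against Sdc1 within the same library. This measure was added after the data were seen. The ratio uses log2 of FPKM without the added 1. Its differences are therefore not on the scale of those above, which matters most for the low gene Cd38. Relative to Sdc1, 5 of 9 genes were lower in IgG1 cells after adjustment over the 9 comparisons, and in 3 of them the libraries did not overlap. This ratio was not computed over all genes, so these counts have no share of all genes beside them. They come from the same values as the calls above and only describe these genes. The log2 ratio to Sdc1 of Slamf7 was 0.45 ± 0.11 for IgM and -0.00 ± 0.10 for IgG1 (SD, n = 5 each; exact permutation test, two-sided, p = 0.00794, adjusted p = 0.0238). That of Cd93 fell by 0.72 and that of Cd38 by 1.74, each with the same exact permutation p, the smallest that 5 against 5 libraries can give. That of Cd28 fell by 0.36 (exact permutation p = 0.0159, adjusted p = 0.0357) and that of Cacna1h by 0.20 (exact permutation p = 0.0238, adjusted p = 0.0429). Slamf6 (0.15), Cd81 (0.09), Ly6c2 (-0.08) and Ly6k (-0.30) had adjusted exact permutation p-values between 0.330 and 0.738. So Slamf7 stood above Sdc1 in all 5 IgM libraries and near it in the IgG1 libraries, between -0.08 and 0.16.

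**Figure D4:**
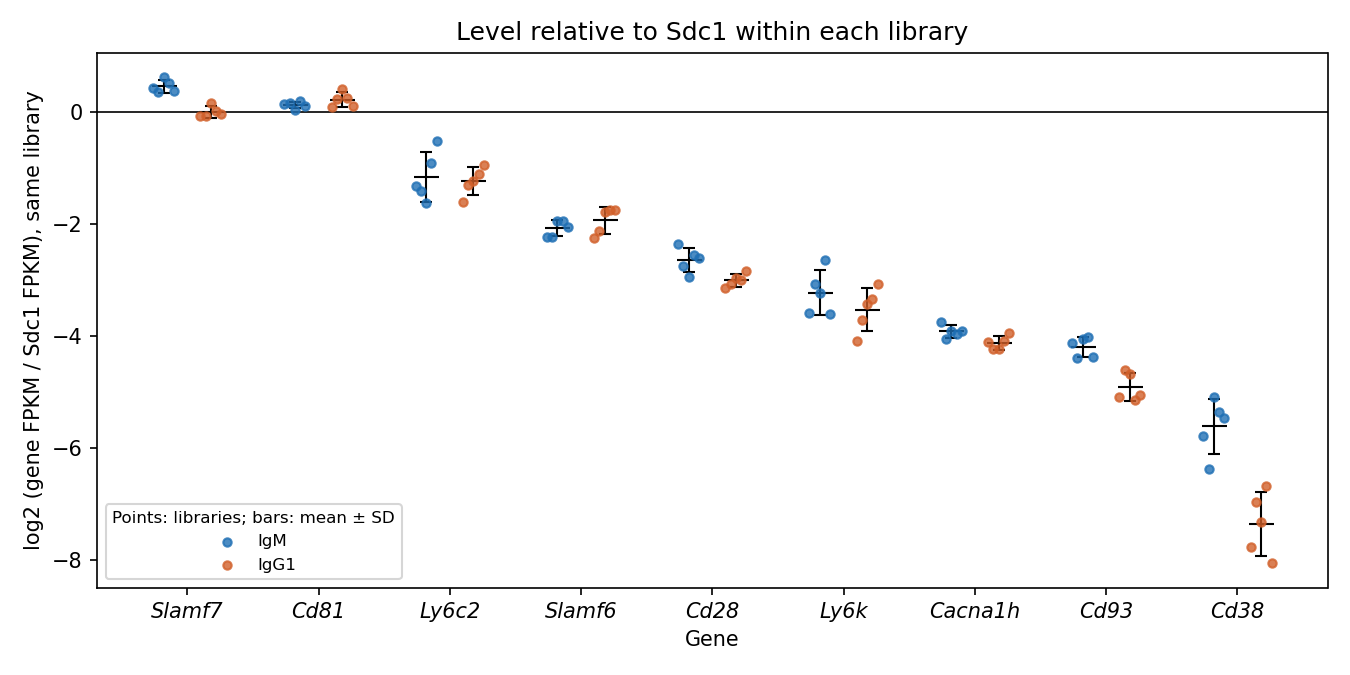
Log2 ratio of each gene's FPKM to that of Sdc1 in the same library (vertical axis), with points for the 5 IgM and 5 IgG1 libraries and bars for mean ± SD. Slamf7, Cd93 and Cd38 show no overlap between the groups.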

How the data were processed

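RNA was measured in 10 libraries, which were grouped by sample title. The miRNeasy Micro kit (RNA) and a SMART-Seq HT LP kit (libraries, without strand) are named in the labels' protocols. The submitters' processing notes name HISAT2 2.1.0, Cufflinks 2.2.1, Cuffdiff and GRCm38, with roles and settings not given in the sources used here. The deposited values are the authors' FPKM, per the file headers, and an exact 0 can be a failed estimate. Of 47719 identifiers 47305 matched GENCODE M21 (GRCm38).

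The 9900 genes with a mean FPKM of 1 or more were tested in limma 3.58.1 (R 4.3.3; eBayes with trend and robust, group as the only term, two-sided, Benjamini-Hochberg over all of them) on log2(FPKM + 1), a scale that understates changes of low genes. The test was also run on simulated data with independent normal noise and far fewer changed genes than were called here. That run cannot speak for effects that libraries share. Single ratios used exact permutation tests (scipy 1.17.1). Depth assumes fragments of 200 bases and gives no counting interval. Shared windows are exact 75-base matches between transcripts.

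The members and lists were chosen with earlier results of these data known. All 10 members are named, and of each list up to 4 genes that passed, by smallest p, or the 2 highest where none passed. The highest marker is named for the plasma cell, mature B cell, T cell, monocyte and macrophage, and endothelial lists. Defining markers of other cells were added to these. A listed gene that is withheld is not reported here. Alternatives were other pseudocounts, filters, scalings, eBayes settings, array weights, a replicate block and each library left out. Removal of length and GC trends and the ratio to Sdc1 were added after the data were seen.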

Additional observations from a re-analysis of the deposited data

How the results depend on the processing

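Across 21 alternatives the calls of Slamf7, Cd28 and Cd93, and across 20 that of Cd38, kept their direction and passed (limma). Cd38 has no value with a mean of at least 5 FPKM required, which it does not reach. Cd81 and Ly6c2 kept their direction and did not pass under any of the 21. The log2 difference of Sdc1 no longer passed at -0.13 without a filter, with eBayes without trend or robust and with the replicate block, and at -0.10 with median-ratio scaling, and leaving out single libraries gave -0.16 to -0.11. Cacna1h no longer passed at -0.32 without a filter and with the replicate block, at -0.29 with median-ratio scaling and at -0.23 under quantile normalization, and leaving out single libraries gave -0.36 to -0.27. Ly6k, at -0.42, passed with the replicate block, and at -0.57 with length and GC trends removed, and leaving out single libraries gave -0.52 to -0.30. Slamf6 turned to -0.013 with a common total without immunoglobulin genes, to -0.052 under quantile normalization and to -0.0035 with array weights, and leaving out single libraries gave -0.040 to 0.068. Its largest move was to 0.23, with length and GC trends removed (limma adjusted p = 0.0507). The causes were not tested.

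Replicate numbers are shared between the groups, but the deviations of same-numbered libraries correlated at -0.04 to 0.10 over 9900 genes, and 4 of 10 libraries correlated best with their own number, so the numbers were not taken as pairs. With the replicate block 5 members were called lower in place of 6, with adjusted p = 0.0697 for Sdc1, 0.0579 for Cacna1h and 0.0419 for Ly6k (limma). Quantile normalization moved the median of all genes from -0.05 to 0.06 and the split of calls from 1791 higher and 2001 lower to 2182 and 1510. What depth limits could not be computed from FPKM without counts. Cd38, the lowest member, had an SD of 27.9% of its mean in IgM and 38.3% in IgG1 libraries.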
